A study of Mus musculus with 11 samples.

Results

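The genes examined here were 10 that write, read or use methylation of histone H3 on lysine 9 (H3K9), taken by symbol from the 54146 genes of the tables. They were the methyltransferases *Setdb1*, *Ehmt1*, *Ehmt2*, *Suv39h1* and *Suv39h2*, the corepressor *Trim28*, the HP1 genes *Cbx1*, *Cbx3* and *Cbx5*, and the chromatin remodeller *Atrx*. Each matched 1 row, and all 10 were detected in every embryo.

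H3K9 methylation marks silent chromatin. SUV39H1 and SUV39H2 place most of the trimethylation at pericentric repeats, EHMT1 (GLP) and EHMT2 (G9a) act as a heterodimer that places dimethylation in euchromatin, and SETDB1 is brought by TRIM28 (KAP1) and KRAB zinc finger proteins to retrotransposons and imprinted loci. The HP1 proteins CBX5 (HP1 alpha), CBX1 (HP1 beta) and CBX3 (HP1 gamma) bind the methylated lysine through a chromodomain, and ATRX, with DAXX, deposits the histone variant H3.3 at repeats. In the cleavage embryo heterochromatin is reorganised, and SETDB1 and TRIM28 are known to be needed around implantation.

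The libraries were made from single C57BL/6 mouse embryos at the 8-cell stage, embryonic day 2.5, from natural matings between *Prdm10* heterozygotes. PRDM10 is a DNA-binding zinc finger protein. The 5 mutants (PRDM10 KO) lacked exon 5 of *Prdm10* on both alleles, a germline null allele that is present in every cell, and the 6 controls (PRDM10 WT/HET) were wild type or heterozygous and were not separated in the labels. Per the study's methods, an embryo was put in its group by qRT-PCR of exon 5 in its own cDNA. Batch 1 was amplified with 16 PCR cycles and held control replicates 4 to 6 and mutant replicates 4 and 5. Batch 2 was amplified with 13 cycles and held control replicates 1 to 3 and mutant replicates 1 to 3. The 2 primers that set the groups are shown because every mutant label rests on them.
Prdm10 exon 5 forward: tgtccaacaggatgccacag
Prdm10 exon 5 reverse: tctggcaatggggttctgc

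*Prdm10* itself was at 11.1 to 24.8 TPM in the controls and 4.88 to 8.16 TPM in the mutants, with no overlap. Its effective length separated the groups as well (2565 to 3357 against 4348 to 5051 bases), and TPM multiplied by length in kilobases, which follows the reads, overlapped (28.6 to 78.2 in controls and 23.6 to 40.0 in mutants). Library totals ran from 3534735 counts in control replicate 2 to 8265840 in mutant replicate 2. A list of 6 8-cell embryo markers summed to 4888 to 6236 TPM in controls and 5014 to 5899 TPM in mutants. Most of that sum was *Dppa3*, with means of 5132 TPM in controls and 4973 TPM in mutants. The sum of 10 markers of cumulus, oviduct, blood and fibroblast cells was at most 27.2 TPM in controls and 32.1 TPM in mutants. *Has2* and *Ptx3* were at 0 throughout, but the oviduct gene *Ovgp1* reached 24.2 TPM in controls and 30.1 TPM in mutants. Control replicate 2 stood apart. It had the lowest total and held both *Xist* (81.8 TPM) and Y-linked transcripts (18.2 TPM summed), which no other embryo did above 1 TPM. Some results that rest on it are also given without it. The fit with *Xist* and Y-linked covariates was run only with it.

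The 10 genes spanned mean levels from 4.00 to 674 TPM in the controls. TPM, the scaled number of transcripts, is corrected for gene length, so it allows levels of different genes to be compared. The mean levels of 3 genes were 271 TPM or more, and those of the other 7 were 53.9 TPM or less.

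*Cbx3* (ENSMUSG00000029836.15, chromosome 6, 51470360 to 51483704, plus strand, GRCm38) was the most abundant, at 674 ± 244 TPM (SD, n = 6) in controls, and *Trim28* followed at 531 ± 124 TPM. *Cbx3* was the higher of these in 4 of 6 controls, and in the batch 1 controls the mean of *Trim28* was higher (558 against 473 TPM). *Atrx* was at 271 ± 109 TPM. Among the 11633 genes with a mean control level of at least 1 TPM, these 3 stood at percentiles 97.95, 97.5 and 94.99. A wide step separated *Atrx* from the fourth gene, *Cbx5* (53.9 ± 22.3 TPM). The mean difference between them was 2.33 ± 0.38 on the log2 scale (SD over 6 controls), and their ranges did not overlap.

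The remaining genes were closer to the median of the expressed genes, which was 9.59 TPM. *Ehmt2* was at 33.7 ± 10.1 TPM, *Ehmt1* at 25.8 ± 9.68 TPM and *Cbx1* at 20.4 ± 11.4 TPM (SD, n = 6). *Suv39h1*, at 14.5 ± 6.08 TPM, and *Setdb1*, at 14.1 ± 6.84 TPM, could not be ordered, since each was higher in 3 of 6 controls. *Suv39h2* was lowest, at 4.00 ± 2.19 TPM, and was below *Setdb1* in 6 of 6 controls by 1.90 ± 1.09 on the log2 scale. Of the 9 steps in the order, 6 were smaller than their own SD over the controls. The other 3, *Trim28* over *Atrx*, *Atrx* over *Cbx5* and *Setdb1* over *Suv39h2*, held in 6 of 6 embryos.

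**Figure D1:**
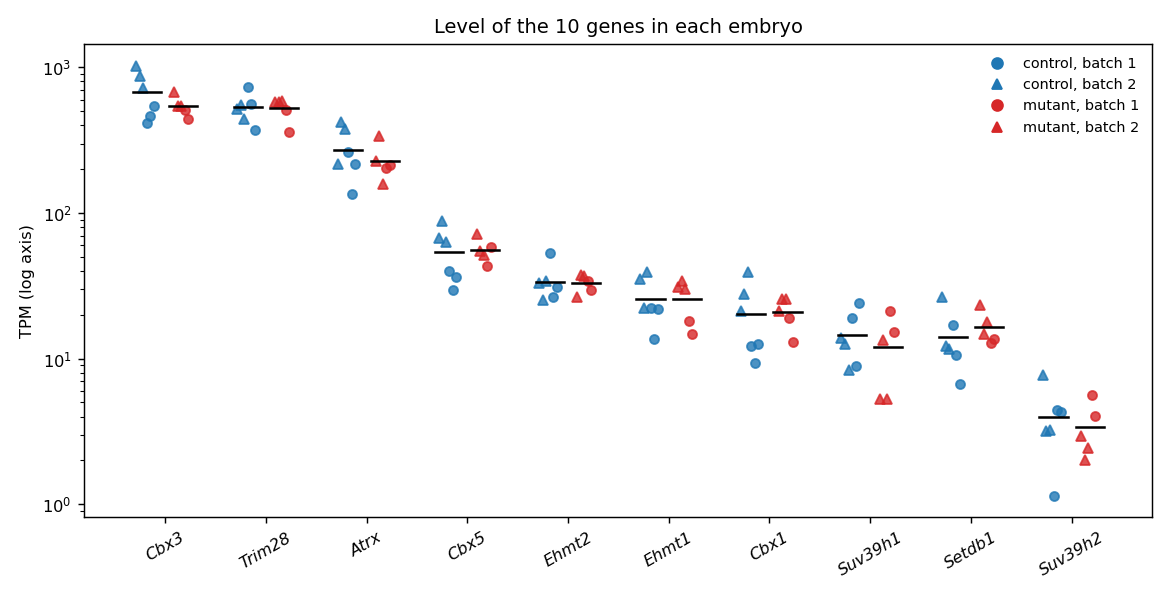
TPM of each gene in each embryo on a log axis, with controls in blue, mutants in red, batch 1 as circles, batch 2 as triangles, and black lines for group means. *Cbx3*, *Trim28* and *Atrx* lie at 134.6 TPM or above in all 11 embryos, and the highest value of the other 7 genes is 87.7 TPM.

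In the HP1 and SUV39H families a single paralog took most of the message, and the EHMT pair was nearly even. HP1 gamma dominated the HP1 genes. *Cbx3* made up 90.1 ± 2.10% of the summed TPM of the 3 HP1 genes in controls, *Cbx5* 7.19 ± 1.36% and *Cbx1* 2.67 ± 1.07% (SD, n = 6). In mutants the shares were 87.5 ± 1.15%, 9.09 ± 1.46% and 3.39 ± 0.77% (SD, n = 5), and the ranges of each share overlapped between the groups. As a share of reads, which favours long transcripts, *Cbx3* was at 83.5% in controls and 78.3% in mutants. *Cbx5* was at 13.8% and 18.6% of reads.

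*Suv39h1* made up 77.03 ± 11.5% of the SUV39H pair in controls and 75.6 ± 9.01% in mutants. The lowest share was 64.1% and the highest 94.4%, so it was the larger of the pair in every embryo. Of the EHMT pair *Ehmt2* held 57.0 ± 9.65% in controls and 57.0 ± 8.74% in mutants. The EHMT split moved with batch. In batch 1 *Ehmt2* held 64.9 ± 6.06% in controls and 65.9 ± 0.90% in mutants, and in batch 2 49.2 ± 3.57% and 51.2 ± 4.76%, so that it was the larger of the pair in 5 of 5 embryos of batch 1, while the batch 2 shares lay on both sides of an even split.

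**Figure D2:**
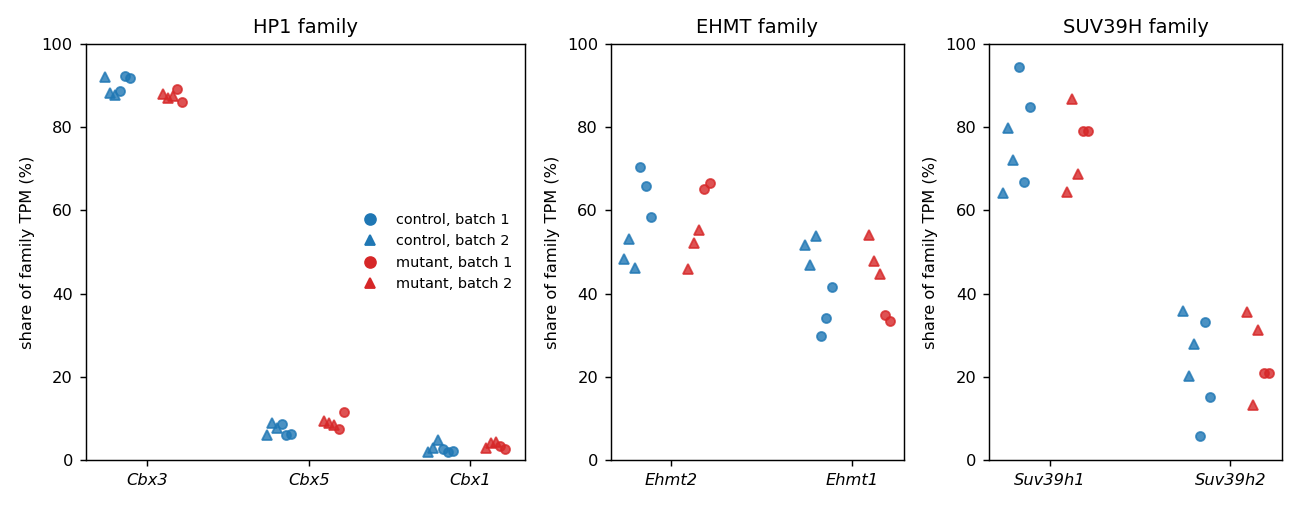
Share of each paralog in the summed TPM of its family, in percent, for each embryo, with controls in blue, mutants in red, batch 1 as circles and batch 2 as triangles. *Cbx3* stays between 86.1% and 92.2% of the HP1 sum in all embryos, and *Ehmt2* is at 58.3% or more of its pair in batch 1 and at 55.4% or less in batch 2.

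The comparison of mutants with controls asks whether loss of PRDM10 changed the message for this machinery at the 8-cell stage. None of the 10 genes passed the test. The count of genes called was 0 of 10 in the DESeq2 fit over all genes (an adjusted p under 0.05 and a mean normalised count above 10), beside 141 of 10448 genes tested, or 1.35%. That background was 280 genes without control replicate 2 and 35 genes in edgeR. By unadjusted p under 0.05 the count was also 0 of 10, beside 1248 of 10448 genes, or 11.9%, and edgeR and limma called 0 of 10. *Cbx3* fell under that threshold in batch 2 alone and in 3 other alternatives. They were limma on log2(TPM + 1) (limma unadjusted p = 0.04995, adjusted p = 0.502) and DESeq2 without control replicate 4 (unadjusted p = 0.0134, adjusted p = 0.285) or without mutant replicate 4 (unadjusted p = 0.0294, adjusted p = 0.651). *Atrx* did so in a fit described further on. The log2 fold changes ran from -0.31 for *Cbx3* to 0.20 for *Cbx5*, with a median of -0.066, beside -0.0012 over all genes tested. Every 95% interval included 0. In whole embryos, less message per cell and fewer expressing cells cannot be told apart.

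*Cbx3* and *Cbx5* had the narrowest intervals. *Cbx3* ran from 413 to 1030 TPM in controls, with a median of 634 TPM, and the mutants were at 672, 540, 539, 510 and 440 TPM. All mutants lay inside the control range. The fold was 0.81 with a 95% interval of 0.64 to 1.02, which is -0.31 ± 0.17 on the log2 scale (SE, DESeq2 adjusted p = 0.512). The batches differed in pattern. In batch 2 the mutants (672, 540 and 539 TPM) were all below the controls (1030, 872 and 726 TPM), and in batch 1 the mutants (510 and 440 TPM) lay among the controls (413, 462 and 543 TPM). Batch 2 alone gave a log2 fold change of -0.56 (DESeq2 unadjusted p = 0.0131, adjusted p = 0.472) and batch 1 alone -0.0041.

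*Cbx5* was at 29.8 to 87.7 TPM in controls, median 51.5 TPM, and at 71.4, 54.7, 51.7, 42.9 and 58.3 TPM in mutants. The groups overlapped, with a fold of 1.15 (95% interval 0.90 to 1.47) and a DESeq2 adjusted p of 0.767. *Cbx1* was at 9.33 to 39.1 TPM in controls, median 16.96 TPM, and at 21.1, 25.8, 25.8, 19.0 and 12.9 TPM in mutants. Its fold was 0.99 (95% interval 0.70 to 1.4). In batch 1 the mutants were above the controls for both genes, and in batch 2 they overlapped.

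For the SETDB1 arm, *Trim28* was at 374 to 739 TPM in controls, median 535 TPM, and at 576, 579, 592, 509 and 358 TPM in mutants. The fold was 0.97 (95% interval 0.73 to 1.3). The 3 mutants of batch 2 lay just above its controls (519, 550 and 444 TPM), and batch 1 overlapped. The log2 fold change was 0.23 in batch 2 alone and -0.39 in batch 1 alone. *Setdb1* was at 6.73 to 26.3 TPM in controls, median 11.9 TPM, and at 23.2, 14.8, 17.9, 12.8 and 13.6 TPM in mutants, with overlap in both batches. Its fold in counts was 0.94 (95% interval 0.68 to 1.31). Its TPM mean was the higher one in mutants, 16.4 against 14.1 TPM. The sign turned when the effective length, described further on, entered the value. It also turned in count fits that leave the length out, at 0.063 (log2) in batch 2 alone and 0.010 without a batch term.

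*Ehmt2* had the smallest difference of the 10 genes, and its partner was also near 0. *Ehmt2* had a fitted difference of -0.00066 ± 0.22 (SE, log2) and *Ehmt1* of -0.046 ± 0.22, with folds of 1.00 (95% interval 0.74 to 1.34) and 0.97 (0.72 to 1.31). *Ehmt2* was at 25.1 to 53.0 TPM in controls and 26.4 to 37.3 TPM in mutants, and *Ehmt1* at 13.6 to 39.6 TPM and 14.9 to 34.3 TPM. The mutant range lay inside the control range for both.

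The pericentric pair was measured least precisely. *Suv39h1* was at 8.37 to 24.0 TPM in controls, median 13.2 TPM, and at 5.29, 13.3, 5.31, 21.3 and 15.2 TPM in mutants. Its log2 fold change was -0.27 ± 0.34 (SE), and its fold of 0.83 had a 95% interval of 0.52 to 1.31. The log2 fold change was -0.016 in batch 1 alone and -0.48 in batch 2 alone, and it ran from -0.13 (without mutant replicate 1) to -0.53 (without mutant replicate 2) when 1 embryo was left out. *Suv39h2* rested on 14.5 to 104 reads per control and 28.8 to 59.9 reads per mutant. Its mutants were at 2.93, 2.02, 2.42, 5.64 and 4.01 TPM, against 1.14 to 7.77 TPM in controls. The fold was 0.85 with a 95% interval of 0.44 to 1.63, the widest of the 10. In batch 2 all mutants were below all controls (7.77, 3.18 and 3.22 TPM), and in batch 1 they overlapped.

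*Atrx* was at 135 to 421 TPM in controls, median 238 TPM, and at 227, 337, 158, 203 and 214 TPM in mutants. The groups overlapped, with a fold of 0.87 (95% interval 0.62 to 1.24) and a DESeq2 adjusted p of 0.868. Without control replicate 2 the log2 fold change of *Atrx* was -0.12 in place of -0.19, and that of *Cbx3* -0.30. With 1 embryo left out *Atrx* ran from -0.061 (without mutant replicate 3) to -0.36 (without mutant replicate 2).

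Mutant and control TPM values did not overlap within a batch for 2 of 10 genes in batch 1 (*Cbx1* and *Cbx5*, mutants higher) and 3 of 10 in batch 2 (*Cbx3* and *Suv39h2*, mutants lower, and *Trim28*, mutants higher). Over all genes tested the same held for 23.6% in batch 1 and 12.5% in batch 2. No gene separated in both batches. The difference in mutant effect between batches was tested as an interaction in DESeq2, and 0 of 10 passed, at adjusted p = 1.00 for each, beside 0.0382% of all genes. The lowest unadjusted p was 0.0878, for *Cbx3*, whose interaction was -0.55 ± 0.32 (SE, log2), and edgeR also called 0 of 10.

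**Figure D3:**
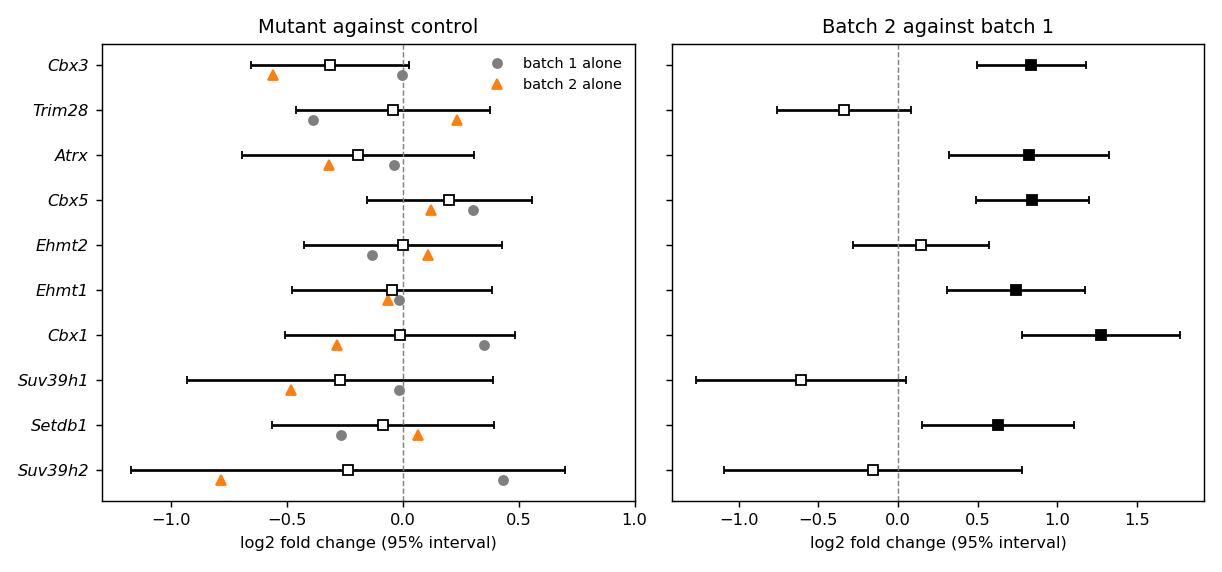
Log2 fold change with its 95% interval for each gene, for mutant against control (left) and batch 2 against batch 1 (right), with filled squares for genes past the threshold and, at left, grey circles and orange triangles for each batch fitted alone. No interval at left excludes 0, and the intervals of 6 genes at right lie wholly above 0.

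The batches differed for 4 to 6 of the 10 genes, depending on the fit (5 in edgeR). Of the 10, 6 were higher in batch 2 than in batch 1 in DESeq2 and none was lower, beside 27.2% of all genes changed in either direction and 13.5% higher in batch 2. In limma on log2(TPM + 1), 4 of the 10 were higher and none lower, beside 5.65% of all genes higher and 18.2% lower. The batches differ in PCR cycles and in embryo collection, and these cannot be told apart. The median log2 difference of the 10 genes was 0.69, beside 0.0018 over all genes.

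All 3 HP1 genes were among the 6. *Cbx1* was at 9.33, 12.2 and 12.7 TPM in batch 1 controls and 21.3, 27.7 and 39.1 TPM in batch 2 controls. Its fold was 2.42 (95% interval 1.71 to 3.42, DESeq2 adjusted p = 1.47e-05), the largest of the 10. *Cbx5* rose from 29.8 to 40.0 TPM in batch 1 controls to 63.1 to 87.7 TPM in batch 2 controls, with a fold of 1.80 (1.4 to 2.3, DESeq2 adjusted p = 7.48e-05). *Cbx3* had a fold of 1.79 (1.41 to 2.26, DESeq2 adjusted p = 3.54e-05). For all 3 HP1 genes, every batch 1 control was below every batch 2 control.

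*Atrx* differed by a fold of 1.77 (95% interval 1.25 to 2.5, DESeq2 adjusted p = 0.0101), *Ehmt1* by 1.67 (1.24 to 2.26, adjusted p = 0.00658) and *Setdb1* by 1.55 (1.11 to 2.16, adjusted p = 0.0484). *Setdb1* was no longer past the threshold with edgeR (adjusted p = 0.0572) or limma, nor was *Atrx* with limma (adjusted p = 0.176). *Ehmt2*, *Suv39h1*, *Suv39h2* and *Trim28* did not pass. Their log2 differences were 0.14, -0.61, -0.16 and -0.34. On log2(TPM + 1) the median of all genes moved by -0.21 between batches, and *Trim28* was at 0.14 and *Ehmt2* at -0.08, the opposite signs. Because mutants made up 2 of 5 embryos in batch 1 and 3 of 6 in batch 2, batch was a term in the comparison of the groups.

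*Atrx* (ENSMUSG00000031229.16, chromosome X, 105797615 to 105929403, minus strand, GRCm38) and *Suv39h1* (ENSMUSG00000039231.18, chromosome X, 8061171 to 8074760, minus strand) are X-linked, and *Xist*, the noncoding RNA transcribed from the inactive X of female cells, varied among the embryos. *Xist* was above 40 TPM in 7 embryos and below 1 TPM in 4, and the 4 all had 30.6 to 50.8 TPM of summed Y-linked transcripts. *Atrx* followed *Xist* within each batch. In batch 2, the 3 embryos with *Xist* had 421, 379 and 337 TPM of *Atrx*, and the 3 without had 216, 227 and 158 TPM. In batch 1, the 4 with *Xist* had 261, 216, 203 and 214 TPM, and the 1 without had 135 TPM. There was no overlap in either batch.

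With group and batch in the DESeq2 fit, *Atrx* rose by 0.089 ± 0.014 (SE) on the log2 scale for each log2 unit of normalised *Xist* count (adjusted p = 3.05e-07), which is a fitted 2.15-fold (95% interval 1.70 to 2.73) over the 12.5 log2 units spanned. Of all genes, 0.829% rose with *Xist* by this test. Both mutants of batch 1 had *Xist*, and 1 of 3 mutants of batch 2 did. The slope was 0.092 without control replicate 2 (adjusted p = 3.36e-06). This fit was chosen after the values were seen. When *Xist* and the Y-linked counts entered the fit, the mutant effect on *Atrx* was -0.27 ± 0.13 on the log2 scale (SE, DESeq2 unadjusted p = 0.0471, adjusted p = 0.596).

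*Suv39h1* did not pass the same test (DESeq2 adjusted p = 1.00), with a fitted fold of 1.63 (95% interval 0.92 to 2.89). In batch 1 the embryo without *Xist* had 8.90 TPM and those with it 15.2 to 24.0 TPM. In batch 2 those without *Xist* had 13.9, 5.29 and 5.31 TPM and those with it 12.5, 8.37 and 13.3 TPM, which overlap. *Phf8*, an X-linked H3K9 demethylase among the other pathway genes, named after its values were seen, had a slope of 0.070 ± 0.038 (SE, DESeq2 adjusted p = 0.939). None of the 8 autosomal genes was called for a slope.

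**Figure D4:**
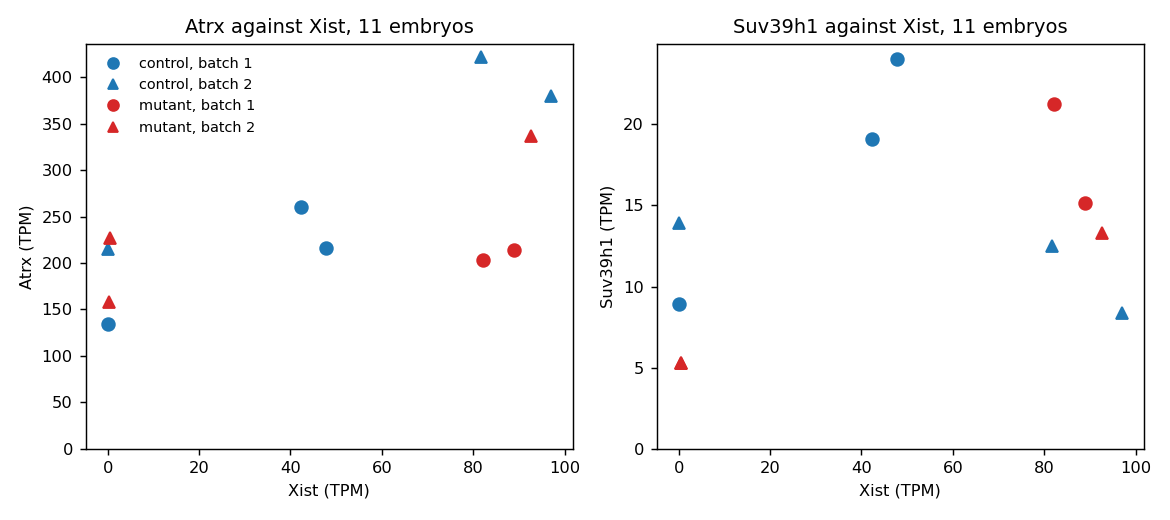
TPM of *Atrx* (left) and *Suv39h1* (right) against TPM of *Xist* in each of 11 embryos, with controls in blue, mutants in red, batch 1 as circles and batch 2 as triangles. Embryos with *Xist* above 40 TPM lie above those below 1 TPM for *Atrx* within each batch, and 2 batch 2 mutants near 5.3 TPM of *Suv39h1* overlie each other.

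RSEM gives each gene an effective length, the mean length of its isoforms weighted by their estimated abundance. Whether it reflects true isoform use was not tested. Reads were shared little between the paralogs. The posterior SD of the count was at most 4.04% of the count in any embryo, for *Suv39h2*, and at most 0.105% for the HP1, EHMT, *Trim28* and *Atrx* genes. Over the 11 embryos the effective length of *Atrx* averaged 21.7% of that of its longest coding transcript (10275 bases), that of *Trim28* 32.6% (3245 bases), and that of *Suv39h1* 97.2%. Of the 10 annotated transcripts of *Trim28*, 1 is protein-coding, and how much of its TPM came from that transcript was not tested.

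*Trim28* changed length with batch. It measured 1064 to 1533 bases in the 5 embryos of batch 1 and 767 to 881 bases in the 6 of batch 2 (two-sided exact permutation p = 0.00216, unadjusted over 10 genes and the least that 5 and 6 embryos can give). The batch 1 mutants, at 1230 and 1333 bases, and controls overlapped, as did those of batch 2. *Suv39h2* was also shorter in batch 2 (mean 2270 against 2637 bases, exact permutation p = 0.0216). The batch test of lengths was added after the data were seen.

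*Setdb1* had the lowest p of the 10 genes for a difference in length between the groups. The 6 controls averaged 4015 bases, from 3194 to 4548, and the 5 mutants 3259 bases, from 2792 to 3943 (two-sided exact permutation p = 0.0346, unadjusted over 10 genes). That test ignored batch. With embryos permuted within batches, a test added after the data were seen, the difference averaged over the batches was -785 bases (exact permutation p = 0.0400, unadjusted, 200 splits). The separation was in batch 1, where the mutants measured 3047 and 3118 bases and the controls 4046 to 4548 bases. In batch 2 the mutants (2792 to 3943 bases) and controls (3194 to 4168 bases) overlapped. Leaving out 1 embryo at a time gave p from 0.0159 to 0.0810, and 0.0635 without control replicate 2. With the effective length as an offset in the count fit, the log2 fold change of *Setdb1* was 0.20 in place of -0.09, and it was not called in either.

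**Figure D5:**
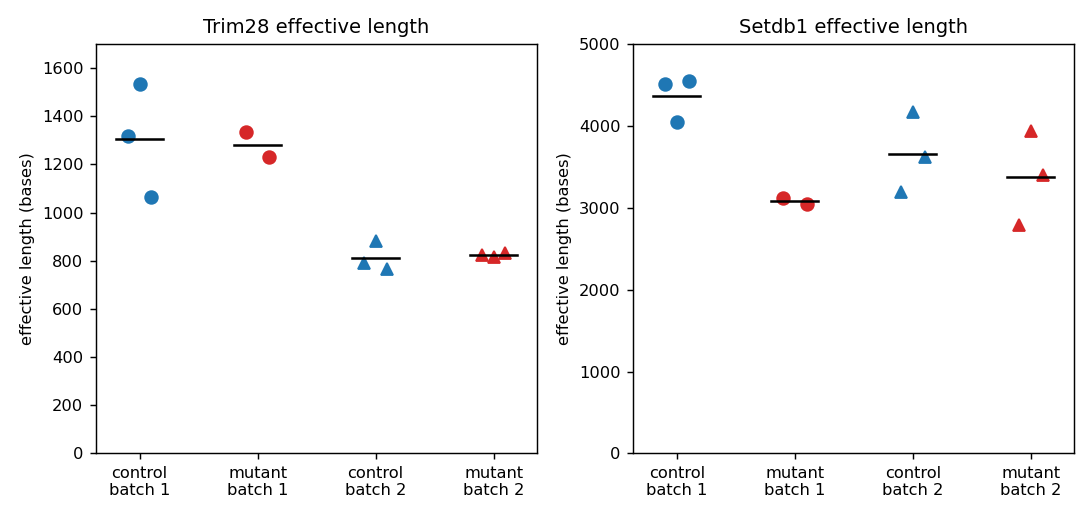
RSEM effective length in bases of *Trim28* (left) and *Setdb1* (right) in each embryo, by group and batch, with black lines for means. *Trim28* is shorter in all 6 embryos of batch 2 than in any of batch 1, and the 2 mutants of batch 1 are the only set of *Setdb1* values that stands clear of its controls.

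Since lengths bear on levels, the order was also computed per base of the longest coding transcript, an alternative added after the data were seen. *Cbx3*, *Trim28*, *Atrx* and *Cbx5* kept places 1 to 4 and *Suv39h2* place 10. *Cbx1* moved from place 7 to 5 and *Ehmt1* from place 6 to 9. On that scale *Trim28* averaged 182 and *Atrx* 57.9 in controls, beside 19.2 for *Cbx5*, and the lowest *Atrx* value (26.8) lay below the highest *Cbx5* value (28.9). Within embryos *Atrx* was still above *Cbx5* in 6 of 6 controls, by 1.54 ± 0.46 on the log2 scale (SD).

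A list of 44 other genes of the pathway was read in the same fit. It held partners of the methyltransferases, the HUSH silencing complex, KRAB zinc finger recruiters, HP1 partners and readers, ATRX partners with the H3.3 genes, and H3K9 demethylases. An adjusted p was given for 38 of them, of which 0 were called in the DESeq2 fit (1.35% over all genes) and 5 had an unadjusted p under 0.05, which is 13.2% beside 11.9% of all genes. Without control replicate 2, 2 of them were called, with 280 over all genes. By direction 21 were below 0 and 17 above, with a median log2 fold change of -0.074. edgeR and limma called 0.

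Among the partners of the methyltransferases, *Zfp644*, a zinc finger partner of the G9a complex, was the most abundant. Its controls ran from 47.9 to 238 TPM and its mutants were at 39.7, 50.9, 60.6, 39.9 and 24.2 TPM. In batch 1 both mutants were below the controls, and in batch 2 only control replicate 2, at 57.6 TPM, lay within the mutant range. On the log2 scale the difference was -1.01 ± 0.30 (SE, DESeq2 adjusted p = 0.0663), just outside the threshold, and it passed without control replicate 2 (adjusted p = 0.0143). *Mecom* was lowest, listed at 0 in 5 of 6 controls. *Setdb2*, a methyltransferase related to *Setdb1*, and *Atf7ip*, the partner that stabilises SETDB1, are named after their values were seen. They had log2 fold changes of -0.79 and 0.54 (DESeq2 adjusted p = 0.253 and 0.224), and -0.80 and 0.61 without control replicate 2 (adjusted p = 0.241 and 0.119). *Setdb2* passed without control replicate 3, at -0.99 (DESeq2 adjusted p = 0.0250).

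In the HUSH complex, which spreads H3K9 trimethylation with SETDB1, *Pphln1* was highest at 182 ± 28.6 TPM (SD, n = 6) in controls and 168 ± 49.5 TPM (SD, n = 5) in mutants, and *Tasor* lowest at 12.6 ± 7.89 and 13.7 ± 6.82 TPM. Of the KRAB zinc fingers, *Zfp809*, a recruiter to retroviral DNA, was at 37.5 ± 19.2 and 48.1 ± 3.52 TPM, and *Zfp708* at 3.06 ± 1.51 and 3.71 ± 3.16 TPM. All 4 KRAB genes had positive log2 fold changes, from 0.25 to 0.51, and none passed. The remodeller *Smarcad1* led the HP1 partners at 141 ± 14.6 and 135 ± 24.6 TPM, and *Sp100* was at or near 0. *Cdyl2*, a chromodomain gene named after its values were seen, had the largest log2 difference among the 38 genes, 1.45 ± 0.58 (SE, DESeq2 adjusted p = 0.240), with 0.08 to 6.39 TPM in controls and 1.64 to 9.95 TPM in mutants, which overlap. It was at 1.32 without control replicate 2 (DESeq2 adjusted p = 0.286), and passed with *Xist* and Y-linked covariates, at 1.79 (adjusted p = 0.0495). The H3.3 gene *H3f3a* was at 2058 ± 344 and 1987 ± 139 TPM, and *Daxx* at 13.7 ± 6.48 and 14.2 ± 3.93 TPM.

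The demethylases ran from *Kdm4d*, listed at 0 in all 11 embryos, to *Kdm3a*, which removes mono- and dimethylation from H3K9. *Kdm7a*, named after its values were seen, was at 3.88 to 21.6 TPM in controls and 3.87 to 8.56 TPM in mutants, differing by -0.74 ± 0.24 on the log2 scale (SE, DESeq2 adjusted p = 0.0901), and by -0.82 without control replicate 2, where it passed (adjusted p = 0.0424). In batch 2 its mutants (at most 8.56 TPM) were all below the controls (21.6, 10.95 and 12.1 TPM), and in batch 1 they overlapped.

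None of the 10 genes is on the study's list of genes with a PRDM10 binding site in mouse embryonic stem cells. Of the 44 others, *Kdm3a* and *Prdm16* are. *Prdm16*, an H3K9 methyltransferase of the PRDM family, was at 0 to 0.54 TPM in all embryos. *Kdm3a* was at 20.7 to 36.5 TPM in controls and 36.6, 18.1, 21.0, 22.5 and 17.5 TPM in mutants. Its fold was 0.97 (95% interval 0.75 to 1.24, DESeq2 adjusted p = 0.969). The groups overlapped in both batches. The binding site covers a RefSeq start of *Kdm3a* inside the gene, and the 300 bases around that start are shown because, of the 54 genes, it alone had a site and was expressed above 1 TPM (GRCm38.p6, minus strand, chr6:71609090-71609389, 49.0% GC).
Kdm3a internal start: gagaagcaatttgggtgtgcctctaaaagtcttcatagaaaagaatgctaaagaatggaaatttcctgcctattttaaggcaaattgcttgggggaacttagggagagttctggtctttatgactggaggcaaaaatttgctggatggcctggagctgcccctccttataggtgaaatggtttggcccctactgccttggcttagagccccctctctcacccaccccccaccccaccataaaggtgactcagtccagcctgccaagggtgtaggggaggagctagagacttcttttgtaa
The window is in lower case because no motif was searched in it.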

How the data were processed

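The deposited data were 11 single-embryo Smart-seq2 libraries of oligo-dT primed RNA, sequenced as single-end reads and without molecular identifiers. The authors aligned the reads with STAR (version 2.6.0c) to GRCm38 and quantified GENCODE genes with RSEM. Each deposited table holds expected counts, TPM and an effective length for every gene. The authors' deposited comparison table, with fold changes and p-values, was not used.

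Expected counts were rounded and fitted with DESeq2 (version 1.42.0, R version 4.3.3), the study's own tool, in a model of batch plus group. Fold changes were left unshrunken, and Wald p-values were adjusted over all genes by Benjamini-Hochberg. A gene was called at an adjusted p under 0.05 and a mean normalised count above 10. Intervals are 95% Wald intervals. Alternatives were edgeR (version 4.0.16), limma (version 3.58.1) on log2(TPM + 1) or log2(TPM + 0.1), other scalings, filters and covariates, single batches, and fits that left out 1 embryo. In simulations of mutant against control on 10489 genes with 200 changed, DESeq2 recovered 43.0% of 2-fold and 80.7% of 4-fold changes, with 17.6% of its calls false. For edgeR these were 31.7%, 71% and 5.23%.

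All 55 pairs of libraries differed by more than sampling noise. Nothing says that embryos came from separate litters, so p-values measure the spread between these embryos. Gene symbols came from a GENCODE annotation of the same build, and sequences from RefSeq (GRCm38.p6) and the study's primer list. The other pathway genes named were those called, those on the study's list of bound genes, and the highest and lowest of each role by mean control TPM. *Setdb2*, *Atf7ip*, *Cdyl2*, *Kdm7a* and *Phf8* were named after their values were seen. The members, lists and tests were chosen with earlier results of these data known.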

Additional observations from a re-analysis of the deposited data

Results flagged for a closer look

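*Ehmt2* in control replicate 4 stood apart from the other controls. It was at 53.0 TPM, and the other 5 controls were at 25.1 to 33.9 TPM, so that its gap to the nearest was 0.686 of the range over the 6 controls. Of 20 sets of values examined (10 genes in controls and in mutants) this was the only such case. The limit applied is a 95% critical value (Dixon's), which chance passes in about 1 of 20 sets.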

How the results depend on the processing

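In the fits of mutant against control, 0 of the 10 genes were called under any of 23 alternatives (lowest adjusted p = 0.285), nor was any interaction with edgeR or with an embryo left out. No paired analysis was possible because replicate numbers follow the order of deposit. The sign of the log2 fold change turned for 6 genes. *Cbx1* was at 0.35 in batch 1 alone, 0.054 with the effective-length offset, and 0.076 and 0.067 in limma on log2(TPM + 0.1) and log2(TPM + 1). *Ehmt1* was at 0.025 without a batch term and 0.0058 with *Xist* and Y-linked covariates. *Ehmt2* was at 0.11 in batch 2 alone, 0.0093 in edgeR, 0.0043 and 0.0036 in limma, 0.020 without a batch term, 0.0029 with TMM factors and 0.033 with the covariates. *Setdb1* was at 0.063 in batch 2 alone, 0.20 with the offset, 0.27 and 0.24 in limma, and 0.010 without a batch term. *Suv39h2* was at 0.43 in batch 1 alone and *Trim28* at 0.23 in batch 2 alone. With each embryo left out, *Cbx1* ran from -0.18 to 0.18, *Ehmt1* from -0.17 to 0.047, *Ehmt2* from -0.090 to 0.11, *Setdb1* from -0.19 to 0.070, *Suv39h2* from -0.48 to 0.13 (above 0 without control replicate 1) and *Trim28* from -0.12 to 0.11.

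For the batches, 5 or 6 genes were called with each embryo left out, and *Setdb1* was lost in 8 of those 11 fits. The batch difference of *Suv39h2* then ran from -0.52 to 0.053. In limma *Ehmt2* was at -0.080 and *Trim28* at 0.14. *Atrx* kept its slope on *Xist* in 11 of 11 such fits (highest adjusted p = 3.45e-04).

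Of all genes, 141 were called, against 78 in batch 1 alone, 45 in batch 2 alone, 35 in edgeR, 21 and 22 in limma, 51 without a batch term, and 90 to 280 with an embryo left out (280 without control replicate 2). Of the 44 other pathway genes, 1 was called with the covariates (*Cdyl2*), with at least 10 counts in 5 libraries (*Zfp644*) and with the offset (*Zfp644*), and 0 to 2 with an embryo left out (*Zfp644*, *Kdm7a* or *Setdb2*). The cause of these shifts was not tested. *Suv39h2*, with the fewest reads, had the widest interval of the 10.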
